A study of Homo sapiens with 12 samples.

Results

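Epithelial-mesenchymal transition (EMT) is the switch by which epithelial cells lose their junctions and take on a motile, mesenchymal state. The transcripts examined here are those of 10 genes of this program, named by role from textbook knowledge, among the 57187 genes of the count table. ZEB1, ZEB2, SNAI1, SNAI2, TWIST1, TWIST2 and PRRX1 are the 7 transcription factors of the set, and VIM, CDH2 and S100A4 are its 3 mesenchymal markers. Every gene of the set passed the filter on low counts in both fits described here.

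RNA was sequenced from 4 human cancer cell lines, the breast lines MDA-MB-231 and HCC1954 and the ovarian lines OVCAR8 (spelled OVAR-8 in the labels) and SKOV3 (SKOV-3). Each line gave 1 library of control cells, which the labels call parental and untreated and the study calls empty vector (EV), 1 library of SIVA-WT transfectants and 1 library of SIVA-D160N transfectants, 12 libraries in all. SIVA encodes a pro-apoptotic adaptor protein, and D160N is an aspartate-to-asparagine change in it. Both forms were carried on linearized plasmids with a CMV promoter, and the transfected cells were selected with hygromycin and kept as polyclonal populations. The study describes no step to remove the endogenous gene from these cells. By the labels, the transfectants thus differ from the controls in transfection as well as in SIVA. Selection is described by the study and not by the labels. If the controls carried an empty vector, as the study states, they were transfected too.

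Total counts ran from 35791455 to 45890398 a library, and mitochondrial genes took 3.61% to 5.77% of them. Levels are in CPM, counts scaled to a common library size with TMM factors, and a gene with 0 counts is limited to 0.0663 to 0.085 CPM, taking 3 counts as the limit, which covers counting error only. SIVA1, the gene on the vectors, was higher in both transfectants than in EV in each line. In MDA-MB-231 SIVA1 was at 28.1 CPM in EV, 80.6 in SIVA-WT and 68.1 in SIVA-D160N, and in HCC1954 it had 0 counts in EV against 37.8 and 26.3 CPM. PAX8, a marker of Müllerian epithelium, was at 60.9 to 243 CPM in the ovarian lines and at or under 3.43 CPM in the breast lines. GATA3, which marks luminal breast cells, was at 42.3 to 49.2 CPM in HCC1954 and at only 1.79 to 2.85 CPM in MDA-MB-231, whose libraries also had at most 0.0221 CPM of the basal keratins KRT5 and KRT14. Other genes of the marker lists did not all follow tissue. MSLN, an ovarian-line marker, went with PAX8, averaging 99.2 CPM in OVCAR8, 6.39 in SKOV3 and 0.34 in HCC1954. MUC16 of the same list averaged 84.8 CPM in HCC1954, 0.0091 in OVCAR8 and 1.04 in SKOV3. WT1 averaged 6.58 CPM in HCC1954 and 0.724 in SKOV3. The breast-line markers TRPS1 and KRT14 averaged 40 and 11.1 CPM in SKOV3, against 35.1 and 9.49 in HCC1954. Of 5 immune markers, the summed level was at most 1.61 CPM in any library. In these bulk samples, fewer cells expressing a gene and less RNA per cell cannot be told apart.

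ZEB1 and ZEB2 are zinc finger and homeodomain repressors that bind E-boxes in epithelial promoters, CDH1 (E-cadherin) among them. The microRNAs of the miR-200 family and miR-205 are known to target their mRNAs, and the ZEB proteins in turn repress the genes of those microRNAs. SNAI1 and SNAI2 are zinc finger repressors of the Snail family, TWIST1 and TWIST2 are basic helix-loop-helix factors, and PRRX1 is a homeodomain factor of mesenchymal tissue. VIM encodes the intermediate filament vimentin, CDH2 encodes N-cadherin, and S100A4 is a small calcium-binding protein linked to cell motility.

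The sequences of this regulatory loop are shown because the ZEB genes and the microRNA host transcripts took opposite levels in the lines, as described after the gene levels. The mature microRNAs below are RefSeq entries of build GRCh38.p14, written 5′ to 3′ with the seed (bases 2 to 8) in capitals. The first 3 share a seed, the next 2 share another that differs from it in a single base, and miR-205-5p has a seed of its own.
hsa-miR-200b-3p: uAAUACUGccugguaaugauga
hsa-miR-200c-3p: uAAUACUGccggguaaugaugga
hsa-miR-429: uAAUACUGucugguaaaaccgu
hsa-miR-200a-3p: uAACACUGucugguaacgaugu
hsa-miR-141-3p: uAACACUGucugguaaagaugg
hsa-miR-205-5p: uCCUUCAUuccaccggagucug

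The mRNA letters that pair with the seed AAUACUG are CAGTATT, and those that pair with AACACUG are CAGTGTT. On the sense strand of the 3′ UTR of ZEB1 (2540 bases in the GENCODE v44 lift to GRCh37, MANE transcript) CAGTATT occurred 6 times and CAGTGTT 3 times, and in that of ZEB2 (5370 bases) they occurred 5 and 4 times. Among 3′ UTRs of similar length to that of ZEB1, 26.8% held at least 1 CAGTATT and 28.7% at least 1 CAGTGTT, and for the length of ZEB2 the shares were 45.9% and 52.1%. ATGAAGG, which pairs with the miR-205-5p seed, occurred 1 time in the ZEB1 3′ UTR and 0 times in that of ZEB2, against 18.9% and 33.4% of UTRs of similar length that held it. Apart from the whole run itself, no stretch that ends any of these runs also starts any of them, so they cannot overlap. A match is a run of letters and not a measured binding site. The CAGTATT matches are shown with 11 bases on each side and with the match in capitals, named by the base of the 3′ UTR at which the match starts.
ZEB1 base 369: ttttatcttatCAGTATTatcactcttat
ZEB1 base 463: taaatccgcttCAGTATTttattatgttt
ZEB1 base 892: gtgccatttctCAGTATTttcaaggctct
ZEB1 base 1243: tttttacctatCAGTATTattttatttct
ZEB1 base 1313: ttcaaacctggCAGTATTaatacccttct
ZEB1 base 1964: ttcatcattatCAGTATTttctttggaaa
ZEB2 base 392: ctaccatacatCAGTATTtttattattat
ZEB2 base 455: ctacaatgcatCAGTATTatgattcctct
ZEB2 base 813: agcacccatgtCAGTATTagaagaatagg
ZEB2 base 898: attaattttgtCAGTATTacaccaaactg
ZEB2 base 1029: actgtagtgtaCAGTATTatagttcttca

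ZEB1 (chr10:31318417-31529804, GRCh38.p14) separated HCC1954 from the other lines. Its level was 108, 96.6 and 96.6 CPM in EV, SIVA-WT and SIVA-D160N of MDA-MB-231, and 98, 78.7 and 73.6 CPM in those of SKOV3. OVCAR8 held 19.9, 28.6 and 33.5 CPM, and HCC1954 held 0.166, 0.804 and 1.61 CPM, from 7, 35 and 57 counts. The lowest library of any other line was thus above the highest of HCC1954. Between HCC1954 and MDA-MB-231 the fitted log2 difference was -6.95 (SE 0.44, edgeR quasi-likelihood test, adjusted p = 6.63e-08), a 123-fold lower level in HCC1954. The means of MDA-MB-231 and SKOV3, 101 ± 6.79 and 83.4 ± 12.9 CPM (SD, n = 3), did not differ past the thresholds (log2 difference 0.26, SE 0.31, adjusted p = 0.476). In every comparison a gene was called if its adjusted p was under 0.05 and its log2 difference was 1.5 or more in size. Nothing says that the 3 libraries of a line came from separate stocks, so a p between lines measures only the spread between those libraries.

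ZEB2 (chr2:144384081-144520119) had its highest level in another line than ZEB1. OVCAR8 held 28.9, 38.5 and 41.7 CPM in EV, SIVA-WT and SIVA-D160N, SKOV3 held 19.3, 17.3 and 15.7 CPM, and MDA-MB-231 held 11.3, 11.5 and 9.44 CPM. HCC1954 was again lowest, with 0.309, 0.804 and 1.3 CPM. No 2 lines overlapped in ZEB2, yet the steps from OVCAR8 to SKOV3 (log2 difference 1.03, SE 0.26) and from SKOV3 to MDA-MB-231 (0.70 in size, SE 0.26) were under the fold threshold. HCC1954 was 45.9-fold below OVCAR8 (adjusted p = 4.96e-08, edgeR).

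**Figure D1:**
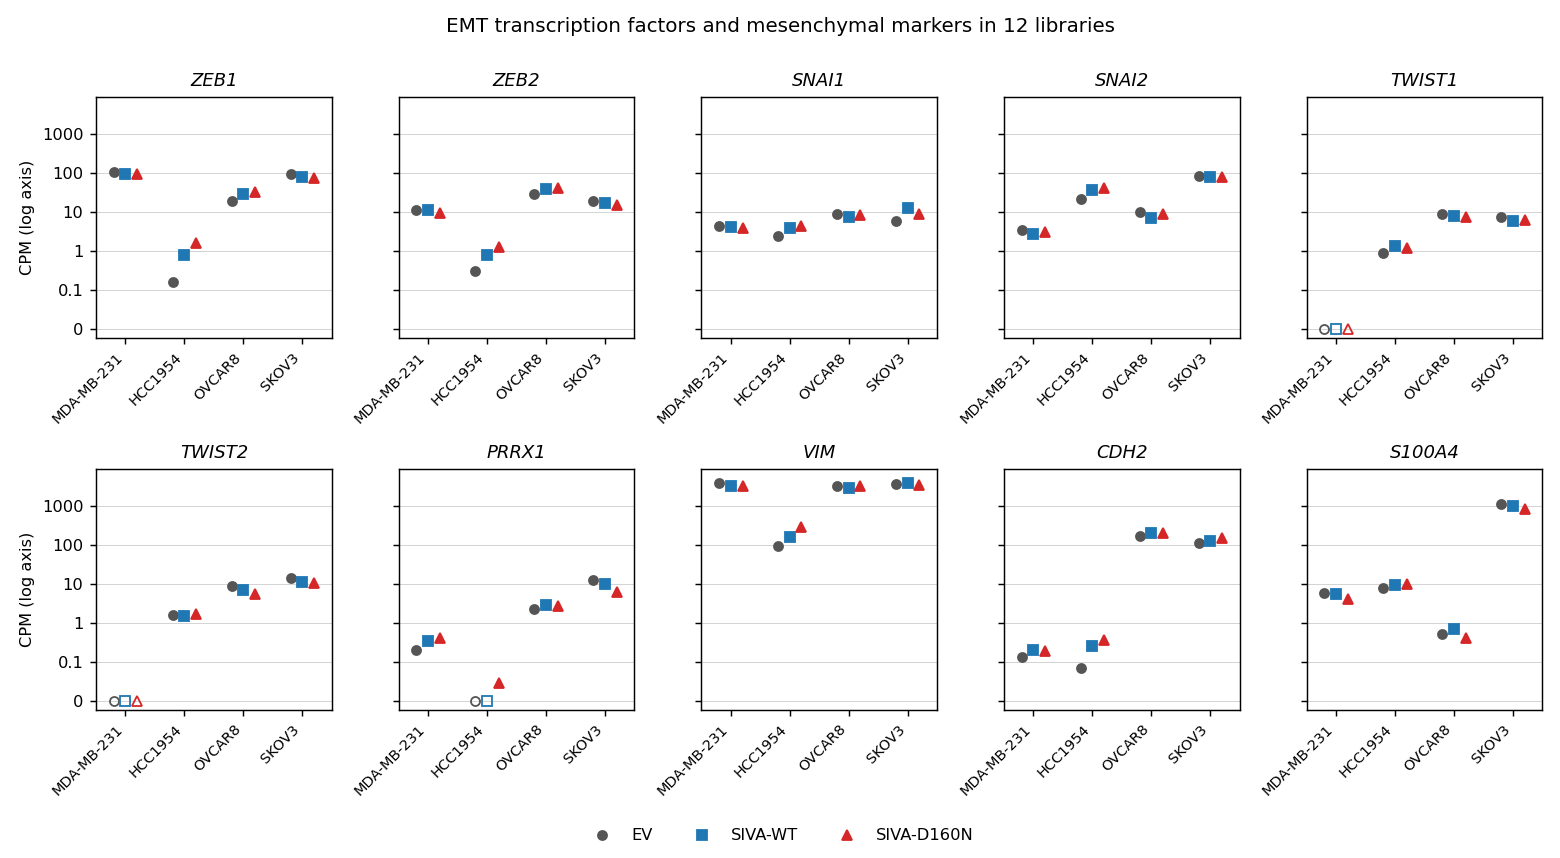
Level of each of the 10 genes in the 12 libraries, in CPM on a log axis, by line and condition (circle EV, square SIVA-WT, triangle SIVA-D160N), 1 library a point. Open symbols on the lowest line are libraries with 0 counts. ZEB1, ZEB2 and VIM are lowest in HCC1954, TWIST1 and TWIST2 have 0 counts in MDA-MB-231, and S100A4 stands at 809 to 1110 CPM in SKOV3.

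SNAI1 (chr20:49982980-49988886) had the fewest calls of the 7 factors, with 0 of 6 line comparisons past the thresholds (adjusted p under 0.05 in 4 of the 6). It was at 4.42, 4.17 and 3.91 CPM in EV, SIVA-WT and SIVA-D160N of MDA-MB-231 and at 2.42, 3.88 and 4.36 CPM in those of HCC1954. The ovarian lines were higher, at 8.77, 7.64 and 8.65 CPM in OVCAR8 and 5.92, 12.9 and 9.12 CPM in SKOV3. The ranges of the breast lines overlapped each other, and so did those of the ovarian lines. Without the SIVA-D160N libraries, the difference between HCC1954 and SKOV3 passed the thresholds (log2 -1.55, against -1.38 with them).

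SNAI2, which encodes Slug, took a different order. It was highest in SKOV3, at 86.4, 78.6 and 79.7 CPM, followed by HCC1954 at 22.4, 37.6 and 41.6 CPM. OVCAR8 held 10.1, 6.91 and 8.94 CPM, and MDA-MB-231, the line highest in ZEB1, held 3.58, 2.75 and 3.06 CPM. No ranges overlapped. SNAI2 was 10.8-fold higher in HCC1954 than in MDA-MB-231 (log2 3.43, SE 0.23, edgeR adjusted p = 1.29e-07), the opposite direction to ZEB1 and VIM. Its neighbours in the order, SKOV3 and HCC1954 (log2 difference 1.27 in size) and OVCAR8 and MDA-MB-231 (1.45 in size), were under the fold threshold, and the second of these pairs passed it without the SIVA-WT libraries (log2 -1.5).

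TWIST1 (chr7:19113047-19117636) and TWIST2 (chr2:238848085-238910534) had 0 counts in each of the 3 MDA-MB-231 libraries. TWIST1 was at 8.96, 7.85 and 7.4 CPM in OVCAR8, 7.5, 5.95 and 6.19 CPM in SKOV3, and 0.902, 1.38 and 1.19 CPM in HCC1954. TWIST2 was at 14.2, 11.4 and 10.6 CPM in SKOV3, 8.82, 7.1 and 5.63 CPM in OVCAR8, and 1.57, 1.52 and 1.67 CPM in HCC1954. Both genes thus had the ovarian lines above HCC1954 and HCC1954 above MDA-MB-231. Against the mean limit of 0.0716 CPM that 3 counts a library give in MDA-MB-231, TWIST1 was at least 113-fold higher in OVCAR8 and at least 16.1-fold higher in HCC1954. TWIST2 was at least 168-fold higher in SKOV3 and at least 22.1-fold higher in HCC1954. OVCAR8 and SKOV3 did not differ past the thresholds in either gene. For TWIST1 the log2 difference was 0.30 (SE 0.21, adjusted p = 0.242, edgeR). For TWIST2 it was -0.76 (SE 0.19, adjusted p = 0.00489, edgeR), under the fold threshold only, and the ranges did not overlap.

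PRRX1 (chr1:170662768-170739421) passed the thresholds in 6 of 6 line comparisons. It had 485, 456 and 246 counts in EV, SIVA-WT and SIVA-D160N of SKOV3 (12.8, 10.2 and 6.04 CPM) and 81, 110 and 105 counts in those of OVCAR8 (2.21, 2.88 and 2.74 CPM). MDA-MB-231 had 9, 14 and 17 counts, and HCC1954 had 0, 0 and 1. The order SKOV3, OVCAR8, MDA-MB-231, HCC1954 held without overlap. SKOV3 and OVCAR8 differed by 3.68-fold (adjusted p = 0.000242, edgeR), but without the EV libraries the log2 difference was -1.49 and under the threshold. In the same comparison ZEB1, 3.15-fold lower in OVCAR8, also lost its call without the EV libraries (log2 -1.29).

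VIM (chr10:17228241-17237593) was among the abundant transcripts of 3 lines. It was at 3930, 3240 and 3230 CPM in MDA-MB-231, 3240, 2920 and 3140 CPM in OVCAR8, and 3700, 3790 and 3510 CPM in SKOV3. HCC1954 held 94.6, 159 and 288 CPM. The range of MDA-MB-231 overlapped those of both ovarian lines, which did not overlap each other, and no difference among the 3 lines passed the thresholds (adjusted p = 0.427 to 0.833), while HCC1954 was 17.7- to 21.1-fold below them (adjusted p at most 2.74e-07, edgeR).

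CDH2 (chr18:27932879-28177130) split the lines by tissue. OVCAR8 held 172, 198 and 197 CPM and SKOV3 111, 126 and 148 CPM. MDA-MB-231 had 6, 8 and 8 counts and HCC1954 had 3, 11 and 13 counts, so that no breast library was above 0.368 CPM. The fitted difference between MDA-MB-231 and OVCAR8 was -10.05 on the log2 scale (SE 0.24, adjusted p = 9.86e-11, edgeR), and no difference passed between the breast lines (log2 0.35, SE 0.40, adjusted p = 0.452). MDA-MB-231 therefore combined VIM at the level of the ovarian lines with at most 0.202 CPM of CDH2.

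S100A4 (chr1:153543621-153545806) was highest in SKOV3. Its level there was 1110, 988 and 809 CPM, against 7.81, 9.33 and 10.1 CPM in HCC1954 and 5.79, 5.35 and 4.01 CPM in MDA-MB-231. OVCAR8 had 0.519, 0.681 and 0.417 CPM. SKOV3 and OVCAR8, both ovarian, differed by 1790-fold (log2 -10.81 for OVCAR8 against SKOV3, SE 0.24, adjusted p = 7.68e-11, edgeR), and HCC1954 did not differ from MDA-MB-231 past the fold threshold (log2 0.86, SE 0.16).

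Over the set, 41 of 60 tests (10 genes in 6 line comparisons) passed the thresholds. Between HCC1954 and MDA-MB-231 7 of the 10 genes passed, where 33% of the 19204 genes tested did. For HCC1954 against OVCAR8 it was 9 genes (34.3% of all genes), and against SKOV3 8 genes (32.8%). MDA-MB-231 differed from OVCAR8 in 7 genes (26.3% of all) and from SKOV3 in 6 (29.6%), and OVCAR8 differed from SKOV3 in 4 (31.1%). The share of the set called was above that of all genes in the 5 comparisons with a breast line. Between the ovarian lines, 4 of 10 against 31.1%, it was near the background. ZEB1 and PRRX1, among those 4, lost their calls without the EV libraries. The 10 genes were chosen with earlier results of these data known. SKOV3 was the line above in every call it was part of, 8 against HCC1954, 6 against MDA-MB-231 and 4 against OVCAR8. Of all genes, 16% were called lower in HCC1954 than in SKOV3. For MDA-MB-231 and OVCAR8 the share by direction was not taken, and 29.6% and 31.1% were called in either direction.

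Per kilobase of transcript (MANE transcript lengths), the leading factor differed from line to line. ZEB1 led the factors in MDA-MB-231 with a mean of 16.9 CPM per kb, followed by SNAI1 at 2.44. SNAI2 led in HCC1954 at 15.5 CPM per kb, with SNAI1 next at 2.09, and again in SKOV3 at 37.4, ahead of ZEB1 at 14.1. In OVCAR8 no factor stood apart: TWIST2 was at 7.97 CPM per kb, TWIST1 at 4.95, SNAI1 at 4.9 and ZEB1 at 4.6. VIM exceeded the leading factor in all 4 lines, and in SKOV3 S100A4, at 1890 CPM per kb, was above VIM at 1700.

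Other EMT factors did not follow 1 order either. TCF3 (E2A) was at 83.2 to 168 CPM in all 12 libraries. TCF4 (E2-2) was at 22.2 to 28 CPM in SKOV3 and 7.07 to 9.57 CPM in OVCAR8, and at or below 0.42 CPM in every breast library. FOXC2 was at most 0.0884 CPM in any library, near the limit of detection. Of 11 tested genes of this list, 2 were called higher and 5 lower in HCC1954 than in MDA-MB-231, 3 higher and 6 lower than in OVCAR8, and 3 higher and 4 lower than in SKOV3. Of all genes, 19.6%, 17.7% and 16.8% were called higher in HCC1954 in these comparisons and 13.5%, 16.6% and 16% lower.

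The other mesenchymal genes had calls in both directions. Of 20 tested, 6 were called higher (19.6% of all genes) and 6 lower (13.5%) in HCC1954 than in MDA-MB-231. Against OVCAR8 it was 5 higher (17.7%) and 9 lower (16.6%), and against SKOV3 2 higher (16.8%) and 10 lower (16%). FN1 (fibronectin) was at 235 ± 98.5 CPM in HCC1954 and at 227 ± 34.8 CPM in MDA-MB-231 (SD, n = 3). CDH11 (cadherin-11) was at 16.8 to 32.1 CPM in HCC1954 and at most 0.376 CPM in MDA-MB-231. In contrast AXL, a receptor tyrosine kinase, was at 3.09 to 10.3 CPM in HCC1954 and 474 to 1090 CPM in the other lines, and SPARC, a matrix glycoprotein, was at 0.68 to 2.8 CPM in HCC1954, 4.49 to 6.59 CPM in MDA-MB-231, 89 to 151 CPM in SKOV3 and 373 to 463 CPM in OVCAR8.

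The epithelial genes ran the other way. Of 29 tested, 27 were called higher in HCC1954 than in MDA-MB-231, where 19.6% of all genes were. Against OVCAR8 26 were called higher (17.7% of all genes) and against SKOV3 27 (16.8%). Among the 29, MARVELD3, RAB25, GRHL2, OVOL1 and OVOL2 had at most 10 counts in total in any other line. They passed the filter on low counts through HCC1954, so the direction of their calls was fixed in advance. CDH1 was at 798, 807 and 689 CPM in EV, SIVA-WT and SIVA-D160N of HCC1954 and at most 0.491 CPM in any other library. The same libraries of HCC1954 held 403, 383 and 409 CPM of ESRP1, an epithelial splicing regulator, against at most 6.34 CPM elsewhere. GRHL2, an epithelial transcription factor, was at 182, 199 and 240 CPM in HCC1954, and the other 9 libraries held between 0 and 0.0262 CPM. EPCAM was at 203 to 245 CPM in HCC1954, 18.6 to 21.2 CPM in OVCAR8 and at most 2.31 CPM in the remaining lines. The single epithelial gene called lower in HCC1954 than in MDA-MB-231 was KRT19, a simple-epithelial keratin, at 13.4 to 30.5 against 63.8 to 89.6 CPM. KRT19 is named here after its values were seen.

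The host transcripts of miR-205, miR-200c and miR-141 had the same split, and those of miR-200a, miR-200b and miR-429 were not analysed here. MIR205HG, from which miR-205 is processed, was at 212, 247 and 135 CPM in HCC1954, had 0 counts in MDA-MB-231 and OVCAR8, and was at most 0.112 CPM in SKOV3. MIR200CHG, the host of miR-200c and miR-141, had 164, 138 and 80 counts in HCC1954 and 0 counts in each of the other 9 libraries. Its mean in HCC1954 was at least 43.4-fold above the limit in MDA-MB-231, at least 39.1-fold above that in OVCAR8 and at least 42.4-fold above that in SKOV3. The mature microRNAs themselves were not measured in these mRNA libraries. MIR100HG had the opposite split, at 74.9 to 146 CPM in MDA-MB-231 and 0.0237 to 1.59 CPM in HCC1954.

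**Figure D2:**
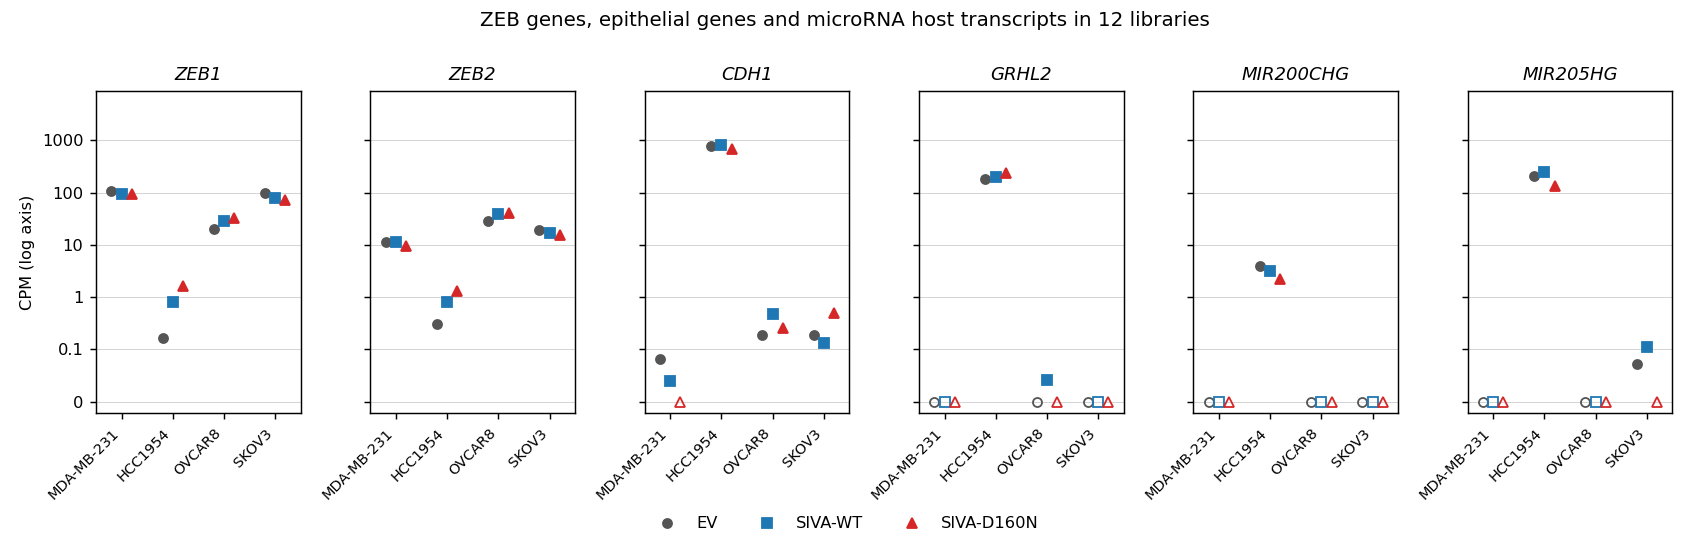
CPM on a log axis of ZEB1, ZEB2, the epithelial genes CDH1 and GRHL2 and the host transcripts MIR200CHG and MIR205HG in the 12 libraries, by line and condition, with libraries of 0 counts as open symbols. HCC1954 is lowest in ZEB1 and ZEB2 and highest in the other 4, with CDH1 at 689 to 807 CPM.

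E-boxes of the kind that ZEB and Snail proteins bind were counted in RefSeq promoters (250 bases before to 50 after a start site). The letters searched were CAGGTG and CACCTG, which are each other's reverse complement, so both strands are covered, and which cannot overlap. Of 14 epithelial genes with a promoter in the table, 10 had at least 1 E-box in 1 of their promoters (71.4%), against 24.1% of all 27305 genes. Counted by promoter, 11 of 19 held 1 (57.9%), against 20.6% of 35116. Of 7 genes of the EMT set with a promoter there, 2 held 1, ZEB1 and S100A4. CLDN7 (a tight junction claudin) and CRB3 (an apical polarity protein) had 5 E-boxes in 1 promoter, which 0.094% of all promoters reached. Both were higher in HCC1954, CLDN7 at 140 to 167 CPM against at most 9.88 CPM elsewhere and CRB3 at 12.6 to 14.3 against at most 0.934 CPM. Their 250 bases before the start are printed in the direction of transcription with the E-boxes in capitals, CLDN7 from chr17:7262479-7262728 on the minus strand and CRB3 from chr19:6464021-6464270 on the plus strand (GRCh38.p14). CLDN7 has 4 of its 5 E-boxes in the printed stretch. A match is a description of the sequence only.
CLDN7: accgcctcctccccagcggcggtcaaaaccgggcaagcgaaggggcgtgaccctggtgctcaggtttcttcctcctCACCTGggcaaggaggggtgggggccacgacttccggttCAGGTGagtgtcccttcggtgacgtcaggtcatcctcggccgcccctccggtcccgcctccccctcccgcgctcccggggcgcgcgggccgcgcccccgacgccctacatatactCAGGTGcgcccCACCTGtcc
CRB3: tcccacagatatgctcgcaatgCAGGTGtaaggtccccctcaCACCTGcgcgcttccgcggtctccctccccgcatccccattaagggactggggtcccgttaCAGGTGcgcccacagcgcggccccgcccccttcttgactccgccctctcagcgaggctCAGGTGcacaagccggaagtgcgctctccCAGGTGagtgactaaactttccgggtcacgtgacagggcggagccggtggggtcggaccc

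Across the 4 lines, none of the 10 genes was called with either form of SIVA. For SIVA-D160N vs EV it was 0 of 10, where 0.00581% of the 17211 genes tested were called (1 gene). For SIVA-WT vs EV it was 0 of 10, and likewise between the transfectants, with 0% of all genes called in both. These counts are from edgeR's quasi-likelihood test with the line as a term, and DESeq2 and limma-voom also called 0 of the 10 in each contrast. At an unadjusted p under 0.05 there was 1 of the 10 genes in SIVA-D160N vs EV, 0 for SIVA-WT vs EV, and 0 between the transfectants. Of all 17211 genes there were 2445, 437 and 1184. In SIVA-D160N vs EV 6.52% of all genes were higher and 7.68% lower at that p, so 1 of 10 was near the background. The 3 contrasts share libraries, so their values are given side by side and are not independent.

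In the reported fit CDH2 was the gene nearest to a call. Its fitted log2 fold change in SIVA-D160N vs EV was 0.41 (SE 0.16, unadjusted p = 0.0281, adjusted p = 0.3, edgeR), and it was higher in 4 of 4 lines. In SIVA-WT vs EV it was 0.27 (SE 0.16, adjusted p = 1), also higher in 4 of 4 lines. In the breast lines these ratios rest on 3 to 13 counts a library. The ratio to EV was 1.14 in OVCAR8 (95% counting interval 1.1 to 1.18, from 7547 and 6311 counts) and 1.33 in SKOV3 (1.28 to 1.39, from 6011 and 4194 counts). With limma-voom, TWIST2 had a lower adjusted p than CDH2 in SIVA-D160N vs EV (0.22 against 0.229). Without HCC1954 S100A4 had a lower adjusted p than CDH2 in that contrast (0.379 against 0.458, edgeR).

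The other factors had small fitted changes with mixed signs. In SIVA-D160N vs EV ZEB1 had a log2 fold change of 0.30 (SE 0.30), ZEB2 of 0.24 (SE 0.25), SNAI1 of 0.29 (SE 0.22), SNAI2 of 0.09 (SE 0.19), TWIST1 of -0.11 (SE 0.22), TWIST2 of -0.36 (SE 0.19) and PRRX1 of -0.14 (SE 0.35). VIM was at 0.29 (SE 0.25) and S100A4 at -0.22 (SE 0.15). The adjusted p of the 10 genes ran from 0.3 to 0.895. Their median log2 fold change was 0.17 (all genes -0.01). For SIVA-WT vs EV the median was 0.06 (all genes -0.01), and for the mutant against the wild-type transfectants it was -0.02 (all genes 0). The value of ZEB1 was 0.64 with DESeq2, 0.09 with limma-voom and 0.03 without HCC1954. Leaving out that line put SNAI1 at 0.12, CDH2 at 0.31, TWIST1 at -0.28, TWIST2 at -0.53, PRRX1 at -0.22 and S100A4 at -0.47. Without HCC1954 the values of SNAI2 and VIM in SIVA-D160N vs EV turned to -0.17 and -0.13 and that of ZEB2 to 0.00, and without SKOV3 that of PRRX1 turned to 0.60.

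**Figure D3:**
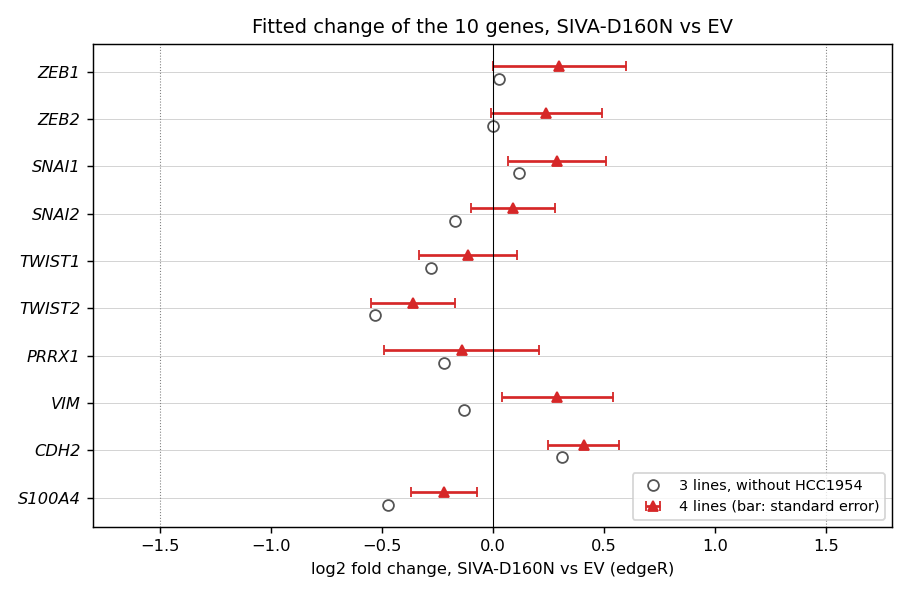
Fitted log2 fold change of the 10 genes in SIVA-D160N vs EV over the 4 lines (triangles, with the standard error as bar) and over the 3 lines without HCC1954 (open circles). Dotted lines mark the fold threshold of 1.5, which no gene reaches; VIM is at 0.29 with HCC1954 and at -0.13 without it.

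An added term asked whether this contrast differed by tissue, breast against ovarian. None of the 10 genes passed at an adjusted p under 0.05 (edgeR, lowest adjusted p 0.976), and CDH2 alone had an unadjusted p under that value.

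Within single lines there is 1 library a condition, so the ratios that follow have no replicate check, and their intervals cover counting error only. The most genes of the set that were higher were found in HCC1954. In SIVA-D160N against EV, 4 of the 10 genes were at least 2-fold higher there (ZEB1, ZEB2, VIM and CDH2), where 4.76% of all genes were, and 10 of 10 were above EV, against 49.6% of the 16799 tested genes with a count in either library. Of these PRRX1 rests on 1 count against 0, and the other 9 had counts in both libraries. These log2 ratios and the 2-fold counts use a prior count of 2. The median log2 ratio of the 10 genes was 0.86, against 0 for all genes. In MDA-MB-231 0 of the 10 were 2-fold higher (2.53% of all genes), in OVCAR8 0 (1.96%) and in SKOV3 0 (2.7%), with medians of -0.17, -0.03 and -0.28. Without the prior count PRRX1 in MDA-MB-231 had a ratio of 2.07 (0.875 to 5.28, from 17 and 9 counts). The 10 ratios of HCC1954 share 1 EV library and are not independent of each other. That EV library had 0 counts of SIVA1, while EV of the other lines held 28.1 to 66.1 CPM. In HCC1954 the transfectants are thus compared with a control in which no SIVA1 transcript was detected.

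As a plain ratio of CPM, with no prior count, ZEB1 in HCC1954 was at 9.71 from 57 counts in SIVA-D160N and 7 in EV (95% counting interval 4.42 to 25.2). ZEB2 had 13 and 46 counts, a ratio of 4.22 (2.24 to 8.51). VIM, with 3984 and 10165 counts, had a ratio of 3.04 (2.93 to 3.16). At that, VIM in HCC1954 SIVA-D160N was at 288 CPM, and the lowest library of any other line was at 2920 CPM. CDH2 had 3 and 13 counts and a ratio of 5.17 (1.42 to 28.3). SNAI2 was 1.86-fold (1.71 to 2.02) and SNAI1 1.8-fold (1.39 to 2.34) above EV. The intervals of TWIST1, 1.32 (0.83 to 2.1), and TWIST2, 1.07 (0.738 to 1.54), included no change.

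SIVA-WT gave values between EV and SIVA-D160N for ZEB1, ZEB2, VIM and CDH2 in HCC1954. Against EV, 3 of the 10 genes were at least 2-fold higher (3.47% of all genes): ZEB1 with a ratio of 4.84 (2.12 to 12.9), ZEB2 with 2.6 (1.34 to 5.36) and CDH2 with 3.55 (0.937 to 19.8). VIM had a ratio of 1.68 (1.61 to 1.75). In MDA-MB-231 0 of the 10 were 2-fold higher in SIVA-WT (2.48% of all genes), in OVCAR8 0 (1.97%), and in SKOV3 1 (1.94%), which was SNAI1.

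**Figure D4:**
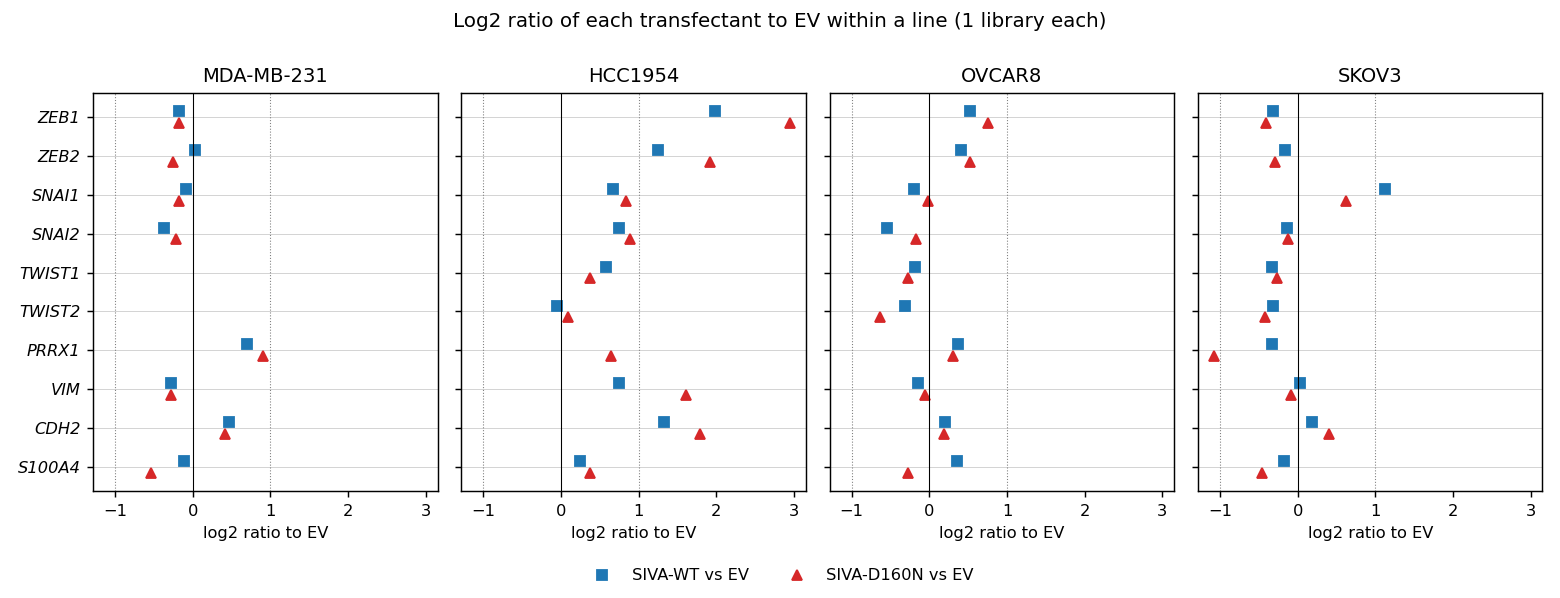
Log2 ratio to EV (prior count of 2) of the 10 genes in each line, squares for SIVA-WT and triangles for SIVA-D160N, 1 library a point. Dotted lines mark a 2-fold change. In HCC1954 10 of 10 genes lie above 0 in SIVA-D160N, PRRX1 from 1 count against 0, and in SKOV3 PRRX1 is the only gene at least 2-fold lower in SIVA-D160N.

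Other genes of the program also differed between the HCC1954 libraries. Of 19 other mesenchymal genes tested, 4 were at least 2-fold higher in SIVA-D160N than in EV (CDH6, TAGLN, AXL and CALD1) and 1 was at least 2-fold lower (SPARC), where 4.76% of all genes were higher and 5.46% lower. AXL was at 3.09, 4.73 and 10.3 CPM in EV, SIVA-WT and SIVA-D160N. In SIVA-WT 5 of 19 were at least 2-fold higher (FN1, CDH6, ACTA2, LOX and TPM2) and 0 lower, where 3.47% of all genes were higher and 1.02% lower. Of 11 other EMT factors, ETS1, at 27.9, 47.2 and 73.3 CPM, and FOSL1, at 23.1, 22.4 and 81.8 CPM, were the 2 at least 2-fold higher in SIVA-D160N (4.76% of all genes). In SKOV3 4 of the 19 mesenchymal genes were at least 2-fold higher in SIVA-D160N (COL1A1, TAGLN, LOX and MYL9, 2.7% of all genes). MMP2, ACTA2 and NT5E were at least 2-fold lower there (6.04%). In OVCAR8 1 was higher and 1 lower (1.96% and 1.55%), and in MDA-MB-231 0 were (2.53% and 4.3%).

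The epithelial genes of HCC1954 were mostly within 2-fold of EV. Of 24 tested, 3 were at least 2-fold lower in SIVA-D160N (CLDN3, KRT19 and PRSS8; 5.46% of all genes) and 0 higher (4.76%), with a median log2 ratio of 0, and in SIVA-WT 0 of 24 were 2-fold lower or higher. CDH1 was at 798 and 689 CPM in EV and SIVA-D160N and GRHL2 was at 182 and 240 CPM. The host transcripts of miR-205, miR-200c and miR-141 were lower in SIVA-D160N, MIR205HG at 135 against 212 CPM and MIR200CHG at 2.27 against 3.89 CPM, while MIR205HG in SIVA-WT, at 247 CPM, was above EV. MIR100HG was higher, with 1, 9 and 56 counts in EV, SIVA-WT and SIVA-D160N and a ratio of 66.8 (11.5 to 2680) in SIVA-D160N against the 1 count in EV.

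The TGF-beta genes encode known inducers of EMT and their signaling chain. Of 14 tested, TGFB2 was the 1 at least 2-fold higher in SIVA-D160N than in EV of HCC1954 (4.76% of all genes). It was at 86.9, 153 and 188 CPM in EV, SIVA-WT and SIVA-D160N. TGFB1 was at 29.3, 33.7 and 34.4 CPM. ID1, ID2 and ID3, targets of BMP signaling, were at least 2-fold lower (5.46% of all genes), with ID1 at 173, 140 and 56.7 CPM. BMP7, of the same list but under the filter on low counts, had 226, 88 and 18 counts. Its ratio of SIVA-D160N to EV was 0.095 (0.0553 to 0.154). In SKOV3 TGFB2, BMP4 and ID3 were at least 2-fold higher in SIVA-D160N (2.7% of all genes). ID3 was at least 2-fold higher and SMAD7 lower in MDA-MB-231 (2.53% and 4.3%), and TGFB2 was at least 2-fold lower in OVCAR8 (1.55%). Of 15 genes for proteins that degrade or partner SNAI1 and TWIST1, 0 were 2-fold changed in HCC1954 in either transfectant. Of all genes, 4.76% were higher and 5.46% lower in SIVA-D160N, and 3.47% higher and 1.02% lower in SIVA-WT. None of these lists had a gene past the thresholds in any of the 3 contrasts over the 4 lines (edgeR). At an unadjusted p under 0.05, SIVA-D160N vs EV had 0 of 11 other EMT factors, 4 of 19 other mesenchymal genes (all higher), 6 of 24 epithelial genes (all lower), 1 of 14 TGF-beta genes and 1 of 15 partner genes (both higher), where 6.52% of all genes were higher and 7.68% lower at that p. The epithelial genes were CLDN3, CLDN7, KRT19, JUP, PRSS8 and MAL2. CLDN3 had 0 counts in MDA-MB-231 and SKOV3, and PRSS8 was at most 0.367 CPM outside HCC1954. The values of both thus rest mostly on single HCC1954 libraries, while JUP averaged at least 14.7 CPM in every line.

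Markers of other cells in the HCC1954 libraries were as follows. The 8 fibroblast markers summed to 15.2, 25.6 and 13.9 CPM in EV, SIVA-WT and SIVA-D160N, with 3 at 0 counts in each library. The 5 immune markers summed to 0.475, 0.735 and 0.538 CPM, and the 4 endothelial markers to 91.2, 78.7 and 47.4 CPM, mostly PECAM1. MYL9, at 14.2 to 24.6 CPM in MDA-MB-231 and 161 to 210 CPM in OVCAR8, had 0 counts in each HCC1954 library. The 5 breast-line markers summed to 334, 492 and 660 CPM, of which the basal keratin KRT5 gave 237, 399 and 578 CPM, and the 5 ovarian-line markers to 76.2, 82.6 and 123 CPM, of which MUC16 gave 65.4, 74.8 and 114 CPM. Both sums were thus highest in SIVA-D160N, as were ZEB1, ZEB2 and VIM, and their part in those values was not tested. KRT5 and MUC16 made up the rise of the sums, and other genes of these lists fell from EV to SIVA-D160N. TRPS1 went from 35.9 to 27.6 CPM, KRT14 from 12.4 to 7.33 and GATA3 from 49.2 to 47. WT1 went from 7.98 to 6.29 CPM, MSLN from 0.404 to 0.227 and EMX2 from 0.237 to 0.0566. PAX8 rose from 2.23 to 2.61 CPM, and ANKRD30A had 0 counts in both libraries. CDH6, at 179 to 195 CPM in SKOV3, was at most 0.528 CPM in HCC1954. The total counts of the 3 libraries were 43200562, 42666382 and 36444830.

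The other 3 lines had ratios on both sides of EV. ZEB1 and ZEB2 in OVCAR8 were 1.69-fold (1.54 to 1.85) and 1.44-fold (1.33 to 1.56) higher in SIVA-D160N than in EV. In SKOV3 both were lower, with ratios of 0.751 (0.716 to 0.789) and 0.815 (0.732 to 0.907), and in MDA-MB-231 they were at 0.892 (0.855 to 0.93) and 0.838 (0.732 to 0.958). The ZEB genes thus lay above EV in HCC1954 and OVCAR8 and below it in SKOV3 and MDA-MB-231. PRRX1 in SKOV3 had a ratio of 0.472 (0.403 to 0.551) in SIVA-D160N. SNAI1 in SKOV3 was 2.19-fold (1.87 to 2.56) higher in SIVA-WT and 1.54-fold (1.3 to 1.83) higher in SIVA-D160N. The fibroblast markers of SKOV3, summed, were at 37.7, 448 and 533 CPM in EV, SIVA-WT and SIVA-D160N, of which COL1A1 gave 23.8, 406 and 503 CPM, with DCN at 0.132 to 0.369 CPM and THY1 at most 0.112 CPM. Their part in the SKOV3 values was not tested.

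Reads of 2 genes of the set could be shared with antisense genes, since the strand setting of the counting is not given in the sources used here. ZEB1-AS1 was at 1.78 to 10.7 CPM and VIM-AS1 at 2.18 to 16.1 CPM over the libraries. In HCC1954 ZEB1-AS1, at 3.21, 3.42 and 4.53 CPM, was above ZEB1 itself. ZEB2-AS1 was at most 0.0447 CPM.

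The genes closest in pattern to ZEB1, VIM and CDH2 were found by the root mean square difference in log2 CPM, each gene centred on its mean, over the 12 libraries and 19204 genes. For ZEB1 they were MPP1 (0.45), ADTRP (0.66) and CHIC1 (0.66). For VIM they were RP11-890B15.3 (0.29), ECM1 (0.37) and ANK2 (0.38), and for CDH2 they were TRIM58 (0.55), ZNF781 (0.63) and TMEM246 (0.65). The 12 points are 4 lines of 3 libraries each, so these values mostly describe the order of the lines.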

How the data were processed

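The authors prepared stranded mRNA libraries, aligned reads to GRCh38 with STAR 2.5.3a (per the labels) and deposited raw gene counts for 57187 genes without normalization. The annotation release and strand setting of the counting are not given in the sources used here. A second deposited table of scaled values was not used. All 12 count columns were matched to a library by name, and 0 columns were left over.

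These counts entered quasi-likelihood fits of edgeR 4.0.16 under R 4.3.3 (glmQLFit, glmQLFTest, TMM, Benjamini-Hochberg adjustment over all genes tested). Conditions were compared over all 12 libraries with the line as a term (filterByExpr by condition, 17211 genes), and lines with the condition as a term (filterByExpr by line, 19204 genes). The line is the replicate block: libraries of 1 line deviated together from their condition means (r = 0.929 to 0.968). For libraries of different lines and conditions r was -0.432 to -0.192. Subtracting the condition means by itself pushes those values to the negative side. Genes were called at an adjusted p under 0.05 with a log2 fold change of 1.5 or more in size. DESeq2 1.42.0, limma-voom (limma 3.58.1), other size factors, filters and thresholds, and leaving out libraries were alternatives. Log2 ratios within a line used a prior count of 2, and counting intervals are exact 95% intervals. The fits were tested on simulated data. Lengths and 3′ UTRs were taken from GENCODE v44 (lift to GRCh37), and positions, microRNAs and promoters from RefSeq (GRCh38.p14). Transcripts without a symbol match were found by Ensembl ID. Figures used matplotlib 3.10.9.

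The 10 genes and the gene lists were chosen with earlier results of these data known. All 10 genes are described; from the lists, genes are named if they passed the thresholds in a condition contrast or had been marked for their role, and the others named in the text, such as MYL9, KRT19, ETS1 and CLDN7, were chosen after their values were seen.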

Additional observations from a re-analysis of the deposited data

Results flagged for a closer look

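Of 53 sets of 4 values, 1 per line, 6 had a line whose gap to the nearest other was large for the range of the set by Dixon's criterion at the 95% level, where chance gives about 2.65. In each of the 6 the line was HCC1954, and the 6 are not independent.

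VIM was far below the other lines in each condition. Its log2 CPM in HCC1954 was 6.56 in EV, where the other lines were at 11.66 to 11.94, 7.31 in SIVA-WT (others 11.51 to 11.89) and 8.17 in SIVA-D160N (others 11.61 to 11.78). Its log2 ratio of SIVA-D160N to EV was 1.61 in HCC1954 and -0.28 to -0.05 in the others.

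The same ratio was 0.89 for SNAI2 in HCC1954, against -0.22 to -0.12 in the other lines. For CDH2 it was 1.79, against 0.19 to 0.42, and rests on 3 counts in the EV library. Each of these ratios compares 1 library with 1, so the ratio in HCC1954 has no replicate.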

How the results depend on the processing

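None of the 10 genes passed the thresholds in any of the 3 condition contrasts under any alternative run (other size factors, DESeq2, limma-voom, at least 1 count, filter by line, threshold on the adjusted p alone, no replicate block, each line left out). With no replicate block the counts of all genes called were 0 in SIVA-D160N vs EV, where the fit with the line gave 1. In SIVA-D160N vs EV all genes called were 12 with DESeq2, 27 with limma-voom, 172 with every gene of at least 1 count, and 0 to 2 with 1 line left out (0 without MDA-MB-231 or SKOV3, 2 without HCC1954 or OVCAR8). In SIVA-WT vs EV, with 0 in the reported fit, they were 1 with DESeq2, 1 with limma-voom and 10 with at least 1 count, and in SIVA-D160N vs SIVA-WT, also 0, they were 3, 1 and 59. The cause was not tested.

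Of 300 member values under alternatives, 31 changed sign, none past the thresholds. With no replicate block ZEB1 and VIM turned to -0.14 and -0.11 in SIVA-D160N vs EV. In SIVA-WT vs EV the fit without the block turned ZEB1 to -0.15, SNAI2 to 0.04, PRRX1 to -0.18, VIM to -0.12 and S100A4 to -0.17. DESeq2 turned PRRX1 to 0.02 in SIVA-D160N vs EV. Limma-voom turned SNAI2 to 0.07, PRRX1 to 0.00 and S100A4 to -0.04 in SIVA-WT vs EV and ZEB2 to -0.03 in SIVA-D160N vs SIVA-WT. With 1 line left out, the log2 fold changes of the genes that changed sign spanned, in SIVA-D160N vs EV ZEB2 0.00 to 0.47, SNAI2 -0.17 to 0.19, PRRX1 -0.40 to 0.60 and VIM -0.13 to 0.49. They spanned, in SIVA-WT vs EV ZEB1 -0.02 to 0.32, SNAI2 -0.34 to 0.10, TWIST1 -0.26 to 0.14, PRRX1 -0.04 to 0.50, VIM -0.13 to 0.16 and S100A4 -0.07 to 0.13. They spanned, in SIVA-D160N vs SIVA-WT ZEB2 -0.09 to 0.16, SNAI1 -0.17 to 0.09, PRRX1 -0.36 to 0.10 and VIM -0.01 to 0.37.

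The 41 calls of the 10 genes between lines were 39 to 42 with 1 condition left out, 52 by the adjusted p alone and 41 under each other alternative. Between lines, the adjusted p alone called, over all genes, 13225 genes for HCC1954 vs MDA-MB-231, 13471 for HCC1954 vs OVCAR8, 13124 for HCC1954 vs SKOV3, 11914 for MDA-MB-231 vs OVCAR8, 12608 for MDA-MB-231 vs SKOV3 and 13181 for OVCAR8 vs SKOV3. Depth limits CDH2 in the breast lines and PRRX1 in HCC1954, which had at most 13 counts a library, and each within-line ratio rests on 1 library.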
